A study of Rattus norvegicus with 15 samples.

Results

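Angptl4, Pdk4 and Cpt1a are 3 genes of fuel use. Pdk4 and Cpt1a help a cell turn from glucose towards fatty acids as fuel, while Angptl4 encodes an inhibitor of fatty acid release from triglyceride. The 3 genes were taken as the rows ENSRNOG00000007545 (Angptl4), ENSRNOG00000009565 (Pdk4) and ENSRNOG00000014254 (Cpt1a) of a table of read counts with 34480 rows. All 3 had enough reads to be tested, among 15543 genes in all. The table gives identifiers without symbols and the reference gene table held 0 rat Ensembl identifiers, so the pairing of these 3 identifiers with symbols came with the definition of the gene set and was not checked. For the same reason, other genes of these pathways and the markers of fat, bone, stromal, blood and endothelial cells were not analysed here, and neither was the identity of the cells.

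The RNA came from bone marrow mesenchymal stem cells of Sprague-Dawley rats, adherent cells of the marrow that can form fat cells and bone-forming cells, grown to confluence at passage 3 to 6. There were 5 groups of 3 libraries. Control cells were untreated, Adi cells received adipogenic differentiation medium and Ost cells osteogenic differentiation medium, and Adi_ASA and Ost_ASA cells received the respective medium together with aspirin, an inhibitor of the cyclooxygenases. No group carried a genetic change. The sources used here do not give the aspirin dose, the time in culture, the composition of the media or the age of the rats, so a difference from Control cannot be told apart from one of culture time. The labels do not say if the replicates came from different animals or dishes, so p-values cover only the spread between these libraries, possibly technical. In such bulk RNA, a change per cell and a change in the share of cells expressing a gene cannot be told apart.

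Angptl4 encodes a secreted inhibitor of lipoprotein lipase, the enzyme that releases fatty acids from circulating triglyceride. Pdk4 encodes a kinase that inactivates the pyruvate dehydrogenase complex and so keeps glucose carbon out of the mitochondrial citric acid cycle. Cpt1a encodes the liver form of the outer mitochondrial membrane enzyme that links long-chain fatty acids to carnitine, the controlled step of their entry for oxidation. All 3 are textbook targets of the peroxisome proliferator-activated receptors (PPARs), nuclear receptors that sense fatty acids and bind DNA with the retinoid X receptor, and Angptl4 and Pdk4 also respond to glucocorticoids. PPAR activity was not measured here.

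All 3 genes were lower in Adi than in Control, but in Ost Pdk4 and Cpt1a rose and Angptl4 fell. As background, the bases just before their transcription starts are shown. Any link between these bases and the changes was not tested. The windows hold 250 bases from RefSeq (build GRCr8), ending just before the start listed there. The read counts were made on another build. The start used lies 1290 bases inside the annotated span of Angptl4 and 2279 bases inside that of Cpt1a, which have 3 and 4 RefSeq transcripts, and at the edge of the span for Pdk4, which has 1. The start used in these cells was not measured, so the windows of Angptl4 and Cpt1a may not be the promoters in use. Capitals mark every match, on either strand, to 8 motifs: the PPAR direct repeat (2 copies of AGGTCA with 1 base between them), its single copy AGGTCA, the glucocorticoid receptor palindrome (AGAACA and TGTTCT with 3 bases between them), the forkhead core TGTTTAC, the hypoxia-inducible factor core ACGTG, the GC box GGGCGG, the CCAAT box (CCAAT) and the TATA box (TATAAA). The single copy lies within the direct repeat, so these searches overlap.

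Angptl4, chr7:15258682-15258931, minus strand: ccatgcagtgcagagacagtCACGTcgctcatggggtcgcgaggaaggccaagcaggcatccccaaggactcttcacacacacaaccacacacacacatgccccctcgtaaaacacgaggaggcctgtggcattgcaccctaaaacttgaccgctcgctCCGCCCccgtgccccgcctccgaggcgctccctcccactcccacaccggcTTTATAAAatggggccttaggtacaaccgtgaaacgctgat

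Pdk4, chr4:34568330-34568579, minus strand: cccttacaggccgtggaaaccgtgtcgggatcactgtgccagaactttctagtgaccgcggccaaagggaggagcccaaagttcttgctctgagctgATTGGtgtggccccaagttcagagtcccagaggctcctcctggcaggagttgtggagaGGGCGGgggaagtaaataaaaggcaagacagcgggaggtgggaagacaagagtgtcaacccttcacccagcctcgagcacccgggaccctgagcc

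Cpt1a, chr1:209995910-209996159, plus strand: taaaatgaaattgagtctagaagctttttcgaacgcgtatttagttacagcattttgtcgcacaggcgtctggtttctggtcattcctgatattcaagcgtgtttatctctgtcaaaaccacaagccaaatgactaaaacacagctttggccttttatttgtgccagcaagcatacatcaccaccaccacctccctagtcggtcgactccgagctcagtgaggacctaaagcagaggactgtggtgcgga

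The Angptl4 window held a TATA box, read on both strands as overlapping matches from base -41 to -34 before the start, a motif found in 13.2% of 27457 rat promoter windows of this length. It also held 1 GC box (32.1% of windows) and 1 hypoxia-inducible factor core (16.9%). The Pdk4 window held 1 GC box and 1 CCAAT box, the latter found in 34.2% of windows, and this window of Cpt1a held none of the 8 motifs. Neither the PPAR direct repeat (0.051% of windows) nor its single copy (13.7%) was present in any of the 3 windows, and the same was true of the glucocorticoid palindrome (1 window of 27457) and the forkhead core (3.29%). The windows were 60% G and C for Angptl4, 59.2% for Pdk4 and 45.6% for Cpt1a, against a median of 52.0%. These matches describe letters in these windows only.

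Libraries held 18373289 to 22817858 counted reads. Levels below are CPM values (read counts scaled to a common library size) after TMM scaling, which corrects each library's total for the weight of a few abundant genes. The TMM factors were 1.05 to 1.07 in Control, 0.911 to 0.944 in Adi, 0.963 to 0.970 in Adi_ASA and 1.00 to 1.04 in the osteogenic groups. Adi replicate 3 had the lowest factor. CPM values are not corrected for gene length, so they are compared between groups and not between genes.

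Angptl4, the lipoprotein lipase inhibitor, was highest in untreated cells and lowest in both osteogenic groups. The 3 Control libraries had 60.7, 69.4 and 59.5 CPM, the Adi libraries 39.4, 36.9 and 40.5 CPM, and the Adi_ASA libraries 54.4, 46.6 and 52.9 CPM. The Ost libraries had 18.4, 22.3 and 21.6 CPM and the Ost_ASA libraries 20.2, 18.9 and 19.97 CPM. Control, Adi_ASA, Adi and the osteogenic libraries thus formed a descending series in which no Control, Adi_ASA or Adi library overlapped the next step, while Ost and Ost_ASA overlapped each other. Such gaps were common, at 57.5% of all genes between Adi and Control and 72.6% between Ost and Control. The share was 23.5% between Adi_ASA and Adi and 18.5% between Ost_ASA and Ost, and it was not computed for other pairs. Group means were 63.2 ± 5.44 CPM (SD, n = 3) in Control, 51.3 ± 4.09 in Adi_ASA, 39.0 ± 1.86 in Adi, 20.8 ± 2.09 in Ost and 19.7 ± 0.658 in Ost_ASA. Each library held 407 to 1487 Angptl4 reads.

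Pdk4, the pyruvate dehydrogenase kinase, was sparse outside osteogenic medium and abundant within it. Control libraries held 27, 34 and 24 Pdk4 reads (1.12, 1.59 and 1.15 CPM), Adi libraries 14, 14 and 9 reads (0.788, 0.769 and 0.479 CPM), and Adi_ASA libraries 27, 38 and 42 reads (1.504, 1.87 and 2.17 CPM). The Ost libraries held 763, 602 and 733 reads (32.8, 31.5 and 32.5 CPM) and the Ost_ASA libraries 499, 493 and 499 reads (22.3, 22.9 and 21.8 CPM). All osteogenic libraries lay far above all others, every Ost library lay above every Ost_ASA library, and every Adi library lay below every Control and every Adi_ASA library. Control and Adi_ASA overlapped, since Control replicate 2 exceeded Adi_ASA replicate 1. The means were 32.3 ± 0.666 CPM (SD, n = 3) in Ost, 22.3 ± 0.551 in Ost_ASA, 1.85 ± 0.333 in Adi_ASA, 1.28 ± 0.264 in Control and 0.679 ± 0.173 in Adi. In the sparse groups the coefficient of variation was about that of read counting alone, at 25.5% against 28.5% in Adi and 20.5% against 18.8% in Control. It was below that of counting in Ost (2.06% against 3.78%) and Ost_ASA (2.46% against 4.49%), so these SDs probably understate the spread.

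Cpt1a, the gate for fatty acid entry into mitochondria, differed by medium, and no difference with aspirin within a medium passed the test. The Control libraries had 29.5, 32.4 and 32.4 CPM, the Adi libraries 21.2, 23.1 and 17.4 CPM, and the Adi_ASA libraries 20.7, 22.2 and 20.7 CPM. Osteogenic libraries had 85.0, 86.6 and 82.0 CPM without aspirin and 89.0, 77.8 and 79.9 CPM with it. The order was osteogenic, Control, adipogenic with no overlap between these 3 steps, and within each medium the libraries with and without aspirin overlapped. Means were 84.5 ± 2.34 CPM (SD, n = 3) in Ost, 82.2 ± 5.98 in Ost_ASA, 31.4 ± 1.69 in Control, 21.2 ± 0.827 in Adi_ASA and 20.6 ± 2.93 in Adi. The wide spread in Adi came with replicate 3, which had the lowest level of any library for both Cpt1a and Pdk4 and the highest Angptl4 level of the Adi libraries.

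**Figure D1:**
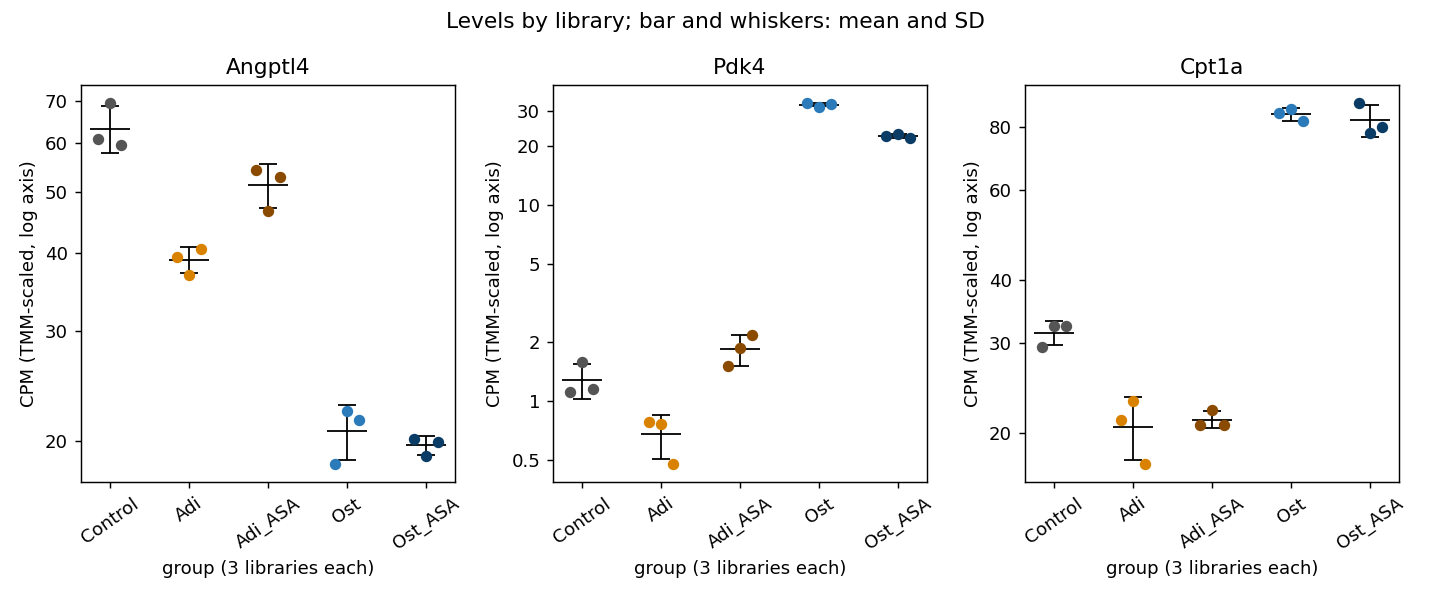
CPM (TMM-scaled, log axes that differ between panels) of Angptl4, Pdk4 and Cpt1a in each of 15 libraries, by group; bars and whiskers give the mean and SD of 3 libraries. Angptl4 is highest in Control at 63.2 CPM, Pdk4 and Cpt1a in Ost at 32.3 and 84.5 CPM.

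How the genes move with fat-cell induction was read from adipogenic medium against untreated culture. All 3 genes were lower in Adi than in Control, where 24.4% of all genes tested were called lower (edgeR quasi-likelihood test, Benjamini-Hochberg adjusted p under 0.05 over all genes). The groups did not overlap for any of the 3, as for 57.5% of all genes. Angptl4 was 1.62-fold lower (log2 fold change -0.70, SE 0.08, adjusted p = 2.26e-07). Pdk4 was 1.89-fold lower, with a 95% interval of 1.42 to 2.51 (log2 fold change -0.91, SE 0.20, edgeR adjusted p = 0.00261), from 37 reads in Adi and 85 in Control. Its SE was 0.30 with DESeq2 and 0.31 with only the compared groups, so this interval may be too narrow. The Pdk4 call held in all 12 alternatives but came near the threshold in some. Its value was -0.71 without Adi replicate 3 (edgeR adjusted p = 0.0442) and -0.74 without Control replicate 2 (edgeR adjusted p = 0.0393). Cpt1a was 1.53-fold lower (log2 fold change -0.61, SE 0.08, edgeR adjusted p = 3.1e-06). Of all genes tested, 12.8%, 9.17% and 14.97% fell further than Angptl4, Pdk4 and Cpt1a. Called genes were 3810 higher and 3793 lower. Scaling by library totals alone moved the median gene to -0.20 and the split to 2168 higher and 6316 lower, and gave -0.89 for Angptl4, -1.10 for Pdk4 and -0.80 for Cpt1a.

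Osteogenic medium against the same untreated cells set the genes apart. Pdk4 and Cpt1a rose and Angptl4 fell, and all 3 passed the test, as did 68.9% of all genes in either direction. None of the 3 had overlapping libraries, which held for 72.6% of genes. Pdk4 was 25.1-fold higher in Ost (95% interval 20.4 to 30.9, log2 fold change 4.65, SE 0.14, edgeR adjusted p = 2.76e-17), the 236th largest rise of 15543 genes. Cpt1a was 2.69-fold higher (log2 fold change 1.43, SE 0.08, edgeR adjusted p = 6.23e-13), and 9.15% of genes rose further. Angptl4 was 3.05-fold lower (log2 fold change -1.61, SE 0.08, edgeR adjusted p = 1.33e-13), and 10.3% of genes fell further. The comparisons of the 2 media with Control share the Control libraries.

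The media were also set against each other. Without aspirin all 3 genes differed, as did 66.5% of genes in either direction. Pdk4 was 47.3-fold lower in Adi than in Ost (95% interval 37.5 to 59.6, edgeR adjusted p = 9.46e-18), the 119th largest difference in that direction. Cpt1a was 4.11-fold lower in Adi (edgeR adjusted p = 3.37e-15) and Angptl4 1.88-fold higher (edgeR adjusted p = 2.69e-09). With aspirin in both media, where 65.7% of genes differed, Pdk4 was 12.0-fold lower in Adi_ASA than in Ost_ASA (95% interval 9.85 to 14.7, edgeR adjusted p = 1.58e-15). Cpt1a was then 3.88-fold lower (edgeR adjusted p = 6.49e-15) and Angptl4 2.60-fold higher (edgeR adjusted p = 2.41e-12).

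Aspirin was added to adipogenic medium to ask how it acts on cells under fat-cell induction. Angptl4 and Pdk4 were higher with aspirin and Cpt1a did not pass the test, in a comparison where 2.49% of genes were called higher. Pdk4 was 2.72-fold higher (95% interval 2.07 to 3.59, log2 fold change 1.45, SE 0.19, edgeR adjusted p = 0.000131), going from 37 reads over the Adi libraries to 107 over the Adi_ASA libraries. This was the 136th largest rise of 15543. Angptl4 was 1.32-fold higher (95% interval 1.17 to 1.47, log2 fold change 0.40, SE 0.08, edgeR adjusted p = 0.00512), and 8.34% of genes rose further. All 3 Adi_ASA libraries lay above all 3 Adi libraries for both genes, and 23.5% of all genes showed no overlap in either direction. Cpt1a differed 1.03-fold, with a 95% interval of 0.912 to 1.17 (log2 fold change 0.05, SE 0.09, edgeR adjusted p = 0.854), and its value was -0.06 without Adi replicate 3. The split of called genes was 387 higher and 288 lower, and 753 and 168 with library totals alone. It was 423 and 427 with DESeq2, 410 and 377 with only the compared groups, and 328 and 244 with a replicate block. The lean towards higher calls thus depended on the setting. Over all 12 alternatives the value was 1.25 to 1.57 for Pdk4 and 0.35 to 0.46 for Angptl4. The SE of the Pdk4 value was 0.29 with DESeq2 and 0.30 with only the compared groups, so its interval above may be too narrow. The count of genes called fell from 675 to 284 without Adi_ASA replicate 3 and to 398, 410, 424 and 417 without Adi replicate 2, Adi replicate 3, Adi_ASA replicate 1 and Adi_ASA replicate 2, while Pdk4 and Angptl4 kept their calls in each case.

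In osteogenic medium Pdk4 went the other way. It was 1.44-fold lower in Ost_ASA than in Ost (95% interval 1.23 to 1.70, log2 fold change -0.53, SE 0.11, edgeR adjusted p = 0.00748), where 1.29% of genes were called lower, and 4.10% of genes had a larger fall. No Pdk4 value overlapped between the groups, as for 18.5% of all genes. Angptl4 had a log2 fold change of -0.08 (95% interval -0.25 to 0.10, edgeR adjusted p = 0.762) and Cpt1a one of -0.04 (95% interval -0.20 to 0.12, edgeR adjusted p = 0.879). Neither passed the test. Genes called numbered 564, and 335, 348 and 357 without Ost replicate 1, Ost replicate 2 and Ost_ASA replicate 3. The call of Pdk4 held each time but came nearer the threshold, at edgeR adjusted p of 0.0451, 0.0306 and 0.0419.

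**Figure D2:**
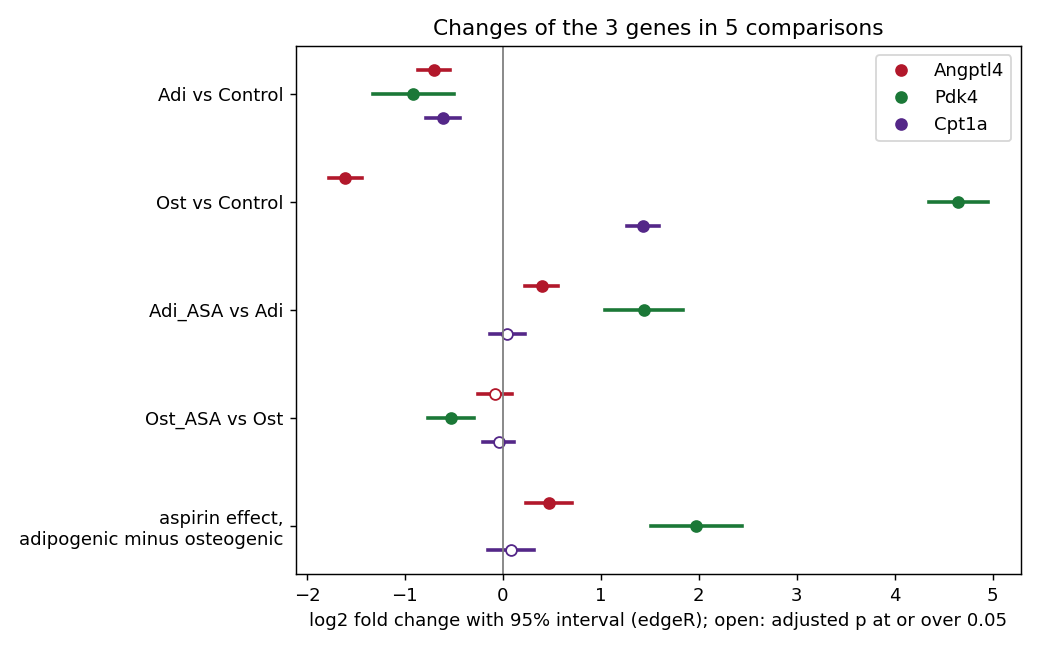
Log2 fold changes (horizontal axis) of Angptl4, Pdk4 and Cpt1a in 5 comparisons, with 95% intervals from the edgeR fit; open circles did not pass the adjusted p threshold of 0.05. Pdk4 lies at 1.45 with aspirin in adipogenic medium and at -0.53 in osteogenic medium, and Cpt1a lies near 0 in both.

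The difference between the 2 aspirin effects was tested as an interaction, which 2.83% of genes passed in either direction. The 2 aspirin comparisons have no library in common. For Pdk4 the effect in adipogenic medium exceeded that in osteogenic medium by 1.98 on the log2 scale (95% interval 1.51 to 2.44, SE 0.22, edgeR adjusted p = 2.66e-05), larger in that direction than all but 0.991% of genes. Its SE was 0.31 with DESeq2 and 0.20 with only the compared groups, and the interval may be too narrow. For Angptl4 the difference was 0.47 (95% interval 0.23 to 0.71, SE 0.11, edgeR adjusted p = 0.0261). That call was lost when any of 6 single libraries was left out (Adi replicate 2, Adi_ASA replicate 1, Adi_ASA replicate 3, Ost replicate 2, Ost replicate 3 or Ost_ASA replicate 2), at 0.42 to 0.45 with adjusted p of 0.0651 to 0.0783. For Cpt1a it was 0.09 (95% interval -0.15 to 0.32, edgeR adjusted p = 0.823). Pdk4 was 1 of 20 genes called higher with aspirin in adipogenic and lower in osteogenic medium, which is 5.17% of the 387 called higher in the first and 9.95% of the 201 called lower in the second. Another 17 genes were lower in adipogenic and higher in osteogenic medium (5.90% of 288 and 4.68% of 363), 32 were higher in both (8.27% of the 387 and 8.82% of 363) and 20 were lower in both (6.94% of 288 and 9.95% of the 201).

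**Figure D3:**
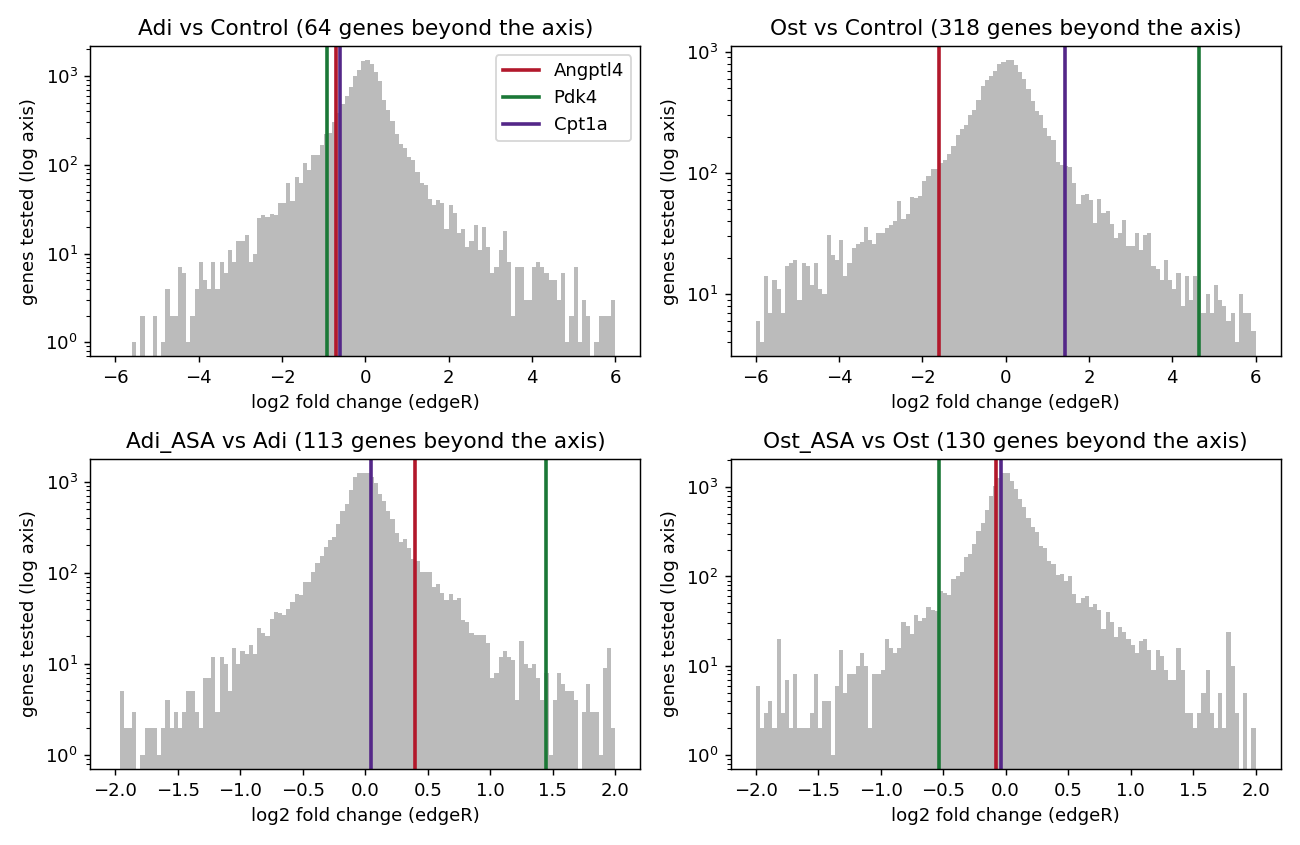
Number of genes (log axis) by log2 fold change for all 15543 genes tested in 4 comparisons, with coloured lines at Angptl4, Pdk4 and Cpt1a; panel titles count the genes beyond the axis. Pdk4 stands in the upper tail at 4.65 for Ost versus Control and 1.45 for Adi_ASA versus Adi, and Cpt1a stands near 0 in both aspirin comparisons.

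Aspirin-treated cells were finally set against untreated cells. In Adi_ASA against Control all 3 genes passed the test, as did 44.4% of all genes. Angptl4 was 1.23-fold lower (log2 fold change -0.30, SE 0.08, edgeR adjusted p = 0.00311), and Cpt1a was 1.48-fold lower (log2 fold change -0.57, SE 0.08, edgeR adjusted p = 9.37e-06). Pdk4 was 1.44-fold higher (95% interval 1.14 to 1.84, log2 fold change 0.53, SE 0.17, edgeR adjusted p = 0.0252), although the libraries overlapped and 6 of 12 alternatives ended the call. Without Control replicate 1, Control replicate 3, Adi_ASA replicate 2 or Adi_ASA replicate 3, its adjusted p was 0.119, 0.0886, 0.0595 and 0.165. The SE of this Pdk4 value was 0.23 with DESeq2 and 0.26 with only the compared groups, so its interval may be too narrow. In Ost_ASA against Control, where 69.3% of genes passed, Pdk4 was 17.4-fold higher (edgeR adjusted p = 2.02e-16), Cpt1a 2.62-fold higher (edgeR adjusted p = 9.93e-13) and Angptl4 3.21-fold lower (edgeR adjusted p = 6.11e-14).

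Read ratios within a library need no scaling between libraries. They set the osteogenic libraries apart from all others, while the ratios of Control and Adi overlapped. Per 100 Angptl4 reads there were 46.7 to 54.5 Cpt1a reads in Control, 42.8 to 62.6 in Adi and 38.1 to 47.5 in Adi_ASA, but 380 to 462 in Ost and 400.2 to 442 in Ost_ASA. Per 100 Cpt1a reads there were 3.54 to 4.90 Pdk4 reads in Control, 2.76 to 3.71 in Adi, 7.26 to 10.4 in Adi_ASA, 36.4 to 39.6 in Ost and 25.0 to 29.5 in Ost_ASA. The Adi_ASA libraries therefore lay above all Adi and Control libraries in Pdk4 relative to Cpt1a, and the Ost_ASA libraries lay below all Ost libraries. An exact permutation test of 3 libraries against 3 cannot give a two-sided p below 0.1, so these ratios are given without a test.

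**Figure D4:**
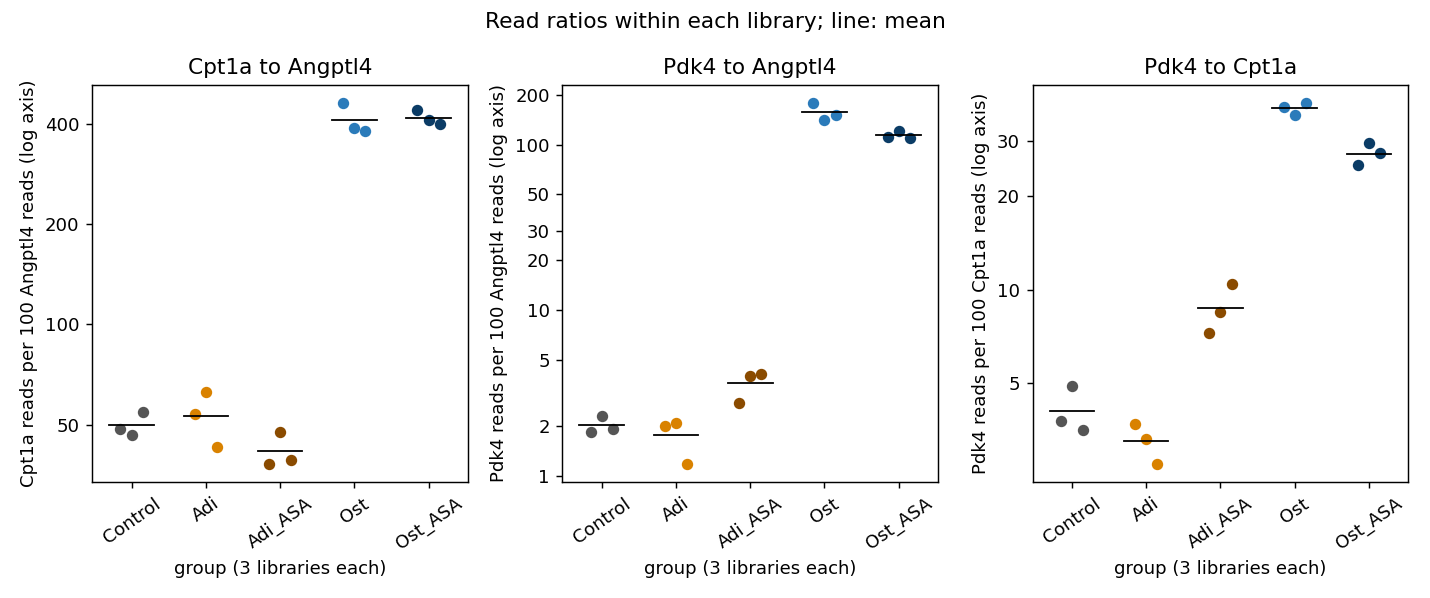
Reads of one gene per 100 reads of another within each library (log axes that differ between panels), by group; points are libraries and lines are means of 3. Pdk4 relative to Cpt1a lies between 7.26 and 10.4 in Adi_ASA, above the 2.76 to 3.71 of Adi.

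Genes with the most similar pattern were sought by Pearson correlation of log2 CPM over the 15 libraries among 14209 other identifiers. The points fall into clusters by medium, so r mostly describes the medium, and 1381, 1873 and 1675 genes had r above 0.9 with Angptl4, Pdk4 and Cpt1a. The closest to Angptl4 was ENSRNOG00000021316 (r = 0.991), at 52.2 ± 3.11 CPM (SD, n = 3) in Control, 34.4 ± 1.78 in Adi, 41.4 ± 1.07 in Adi_ASA, 17.0 ± 1.43 in Ost and 16.2 ± 0.787 in Ost_ASA. The closest to Pdk4 was ENSRNOG00000026941 (r = 0.993), at 40.4 ± 2.91 CPM (SD, n = 3) in Control, 32.1 ± 1.98 in Adi, 43.7 ± 2.91 in Adi_ASA, 230.2 ± 13.3 in Ost and 203 ± 11.1 in Ost_ASA. Its order of group means was that of Pdk4. Their symbols are not in the sources used here.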

How the data were processed

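Total RNA of 15 libraries was sequenced. The authors deposited raw read counts per gene, whole numbers with no normalisation. The submitters' processing notes name HISAT2 2.0.4, HTSeq 0.9.1, DESeq 1.18.0 and the build Rnor_6.0, without roles or settings, so strand use and the handling of shared reads are unknown. Each column name matched 1 sample title. 32883 rows carried Ensembl identifiers and 1597 other names.

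The tests used edgeR 4.0.16 under R 4.3.3: filterByExpr (15543 genes kept), TMM scaling, 1 quasi-likelihood model of the 5 group means over all 15 libraries (robust), 9 contrasts, with p-values adjusted over every gene kept (Benjamini-Hochberg). SE is the size of the log2 fold change over the square root of F, and intervals are 95%. For Pdk4 in comparisons with Control, Adi or Adi_ASA, where its reads were few, this SE was smaller than that of DESeq2. Its intervals there may be too narrow. Log2 CPM used a prior count of 2. Replicates were distinct libraries: the chi-square of each pair, divided by its degrees of freedom, was 5.41 to 13.5, against 1 for counting noise. The model was tested on simulated data.

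Alternatives were DESeq2 1.42.0, RLE factors, no filter, only the compared groups, a replicate block, each library left out, and, added after seeing the data, library totals alone. The 3 genes, the motifs and the comparisons were chosen with earlier results of these data known. Named were the 3 genes and the closest identifier to each, with at most 2 that fell in Adi printed, so that of Cpt1a is not named. Symbol lists could not be matched and were not used.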

Additional observations from a re-analysis of the deposited data

Results flagged for a closer look

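Aspirin effects that differed between the media by the interaction test were found for Pdk4, at 1.98 in log2 units, the effect in adipogenic medium less that in osteogenic medium (SE 0.22, edgeR adjusted p = 2.66e-05), with 1.45 in adipogenic and -0.53 in osteogenic medium. All 3 Adi_ASA libraries lay above all Adi libraries and all 3 Ost_ASA libraries below all Ost libraries. The adipogenic value rests on 9 to 42 reads per library, so the SE of 0.22 may be too small (0.31 with DESeq2, 0.20 with only the compared groups). The difference passed the test in all 18 alternatives run, at 1.78 to 2.10. The same test passed for Angptl4, at 0.47 (SE 0.11, edgeR adjusted p = 0.0261), with 0.40 in adipogenic and -0.08 in osteogenic medium, and it did not pass in 6 of 18 alternatives.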

How the results depend on the processing

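Of the 27 effects of the 3 genes (9 comparisons each, 12 to 18 alternatives), 23 kept their direction and side of the threshold throughout. The Pdk4 difference of Adi_ASA from Control, 0.53, was not called with only the compared groups (0.53, edgeR adjusted p = 0.0983) or library totals alone (0.40, adjusted p = 0.0957), and ranged from 0.40 to 0.71 with 1 library left out. The Angptl4 interaction ranged from 0.42 to 0.55 with 1 library left out. The aspirin effect on Cpt1a was never called, either within a medium or in the interaction. Without Adi replicate 3 it turned from 0.05 to -0.062 in adipogenic medium and from 0.09 to -0.022 in the interaction. The ranges were -0.06 to 0.14 and -0.02 to 0.18. The cause of these changes was not tested. With 1 library left out, genes called numbered 284 to 529 for Adi_ASA versus Adi, 335 to 536 for Ost_ASA versus Ost and 288 (without Adi_ASA replicate 3) to 427 for the interaction, with fewer samples in each fit. Library totals alone gave mean levels of 36.2 CPM for Angptl4 in Adi, 33.3 for Pdk4 in Ost, and 33.3 and 87.3 for Cpt1a in Control and Ost, each further from the TMM value than 1 SD. It also shifted the split of calls to 4106 higher and 6440 lower for Adi versus Ost (5129 and 5207 with TMM), 402 and 184 for the interaction (186 and 254), and 2304 and 5209 for Adi_ASA versus Control (3502 and 3397). Libraries with the same replicate number did not deviate together (correlation -0.07 to 0.04 over 30 pairs). With 3 libraries per group, these values cannot show whether equal numbers mark a shared animal, dish or day. The replicate block gave 1.44 for Pdk4 and 0.40 for Angptl4 with aspirin in adipogenic medium, called 572 genes there against 675, and ended no call of the 3 genes. Depth limits Pdk4 most, with 9 to 42 reads per library outside osteogenic medium.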
